A study of Homo sapiens with 6 samples.

Results

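The lysosome and autophagy genes described here are 49 genes of 24526 in the deposited table, taken by their symbols from a list of lysosomal hydrolases, lysosomal membrane proteins, MiT/TFE transcription factors and autophagy machinery, and all 49 were present. They were measured by RNA-seq in WM266.4, an established human melanoma cell line, 48 h after transfection. The control group, neg.si, was 3 libraries from cells given a negative control siRNA, and the RIPK4.si group was 3 libraries from cells given an siRNA against RIPK4, with no other treatment in either group. These RNA-seq libraries come from 1 cell line and a transient transfection with siRNA, a short double-stranded RNA that leads to degradation of the matching transcript.

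Lysosomes are acidic organelles in which hydrolases break down proteins, glycans and lipids that arrive by endocytosis or by autophagy, the process that wraps cytoplasm in a double membrane and delivers it for degradation. A proton pump, the V-ATPase, keeps the lumen acidic, and mTORC1 on the lysosomal surface holds the transcription factors TFEB and TFE3 in the cytoplasm while nutrients are plentiful. Once in the nucleus, these factors raise many lysosomal and autophagy genes through an E-box in their promoters. In pigment cells the related factor MITF recognizes similar sequences, and the melanosome, the pigment organelle, shares membrane proteins and acidification machinery with lysosomes.

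The E-box, whose letters are CACGTG, was looked for in RefSeq promoter windows (GRCh38.p14) running from 250 bases before to 50 bases after the gene start. It reads the same on both strands. Windows were matched by symbol for 37 of the 49 genes, and 9 of the 37 (24.3%) held the E-box, beside 8.77% of the 27305 genes with a window and 12.4% of the 11037 that were also tested for a change. The longer form GTCACGTG, or CACGTGAC on the other strand, contains the E-box and was present in 6 of the 37 (16.2%), beside 2.93% of all genes with a window and 5.06% of those also tested. The windows below are shown because they belong to members whose promoters hold this longer form, among them MCOLN1, a member with an unadjusted p-value under 0.05, and they cover 30 bases each, 5′ to 3′ on the strand of the gene, with the E-box in capitals. LAMP1 had 6 such windows, of which 1 is shown.
MCOLN1, 41 bases before the start (chr19:7522571-7522600, plus strand): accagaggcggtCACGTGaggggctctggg
MCOLN1, 14 bases before the start (chr19:7522598-7522627, plus strand): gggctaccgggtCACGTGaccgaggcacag
GAA, 76 bases before the start (chr17:80101493-80101522, plus strand): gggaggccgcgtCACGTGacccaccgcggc
GAA, 31 bases before the start (chr17:80101538-80101567, plus strand): gctcccgccggtCACGTGacccgcctctgc
CTSA, 42 bases before the start (chr20:45891281-45891310, plus strand): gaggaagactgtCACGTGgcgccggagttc
CTSA, 25 bases before the start (chr20:45891298-45891327, plus strand): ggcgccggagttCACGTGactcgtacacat
LAMP1, 28 bases before the start (chr13:113297199-113297228, plus strand): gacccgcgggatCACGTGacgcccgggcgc
ATP6V0D1, 59 bases before the start (chr16:67481199-67481228, minus strand): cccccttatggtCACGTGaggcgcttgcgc
CTSD, 47 bases before the start (chr11:1763957-1763986, minus strand): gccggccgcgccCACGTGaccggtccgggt
These are matches of letters within one window of each gene, and no binding was measured.

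RIPK4 was at 85.8, 76.5 and 54.7 CPM in neg.si replicates 1, 2 and 3 and at 19.9, 16.7 and 21.5 CPM in RIPK4.si replicates 1, 2 and 3, where CPM is the count scaled to a common library size after TMM normalization. Every RIPK4.si library lay below every neg.si library. The log2 fold change was -1.90 with a standard error (SE) of 0.203 and an adjusted p of 0.0102 (edgeR, quasi-likelihood, Benjamini-Hochberg over the 16297 genes tested). RIPK4 was not called, with an adjusted p of 0.0622 to 0.106 in edgeR, when neg.si replicate 2 or any RIPK4.si library was left out, with log2 fold changes from -1.98 to -1.79. Library totals ranged from 28464057 to 31688095 counts. Deviations of neg.si replicates 1 and 3 from the mean of all 6 libraries were ordered by GC content. The order was positive in neg.si replicate 1 (Spearman's rho 0.555 over genes) and negative in neg.si replicate 3 (rho -0.547). On the first principal component neg.si replicate 3 (56.1) and RIPK4.si replicate 2 (-41.5) lay at opposite ends. The melanoma markers SOX10, MITF, MLANA, PMEL, TYR and S100B summed to between 2731 and 3353 CPM in the neg.si libraries and between 2164 and 2309 CPM in the RIPK4.si libraries, so this sum moved with the group. Of the 6, edgeR called PMEL, the fibril protein of melanosomes (log2 fold change -1.30, adjusted p = 0.0111), TYR (-0.57) and S100B (-0.48) did not pass, and SOX10, MITF and MLANA had overlapping libraries with -0.15, 0.04 and 0.06. Their part in the results below was not tested. PMEL was no longer called by edgeR without neg.si replicate 2, RIPK4.si replicate 1 or RIPK4.si replicate 3, where no gene of the whole table was called. For 8 markers of leukocytes, endothelium and epithelium the sums were 1.45 to 2.23 CPM in neg.si and 2.22 to 2.45 CPM in RIPK4.si.

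Lysosomal transcripts were abundant in these cells. The median level of the 48 tested members was 69.4 CPM in neg.si, beside 14.7 CPM over all genes tested, and the 49 genes together made up 0.683% to 0.974% of each library's counts. For a comparison between genes, CPM was divided by the length of the canonical transcript in kilobases. On this scale the tetraspanin CD63, which sits in lysosomal and melanosomal membranes, was highest in neg.si at 1362 ± 301 CPM per kilobase (SD, n = 3). Next came PSAP, the precursor of the saposins that help degrade sphingolipids, at 472 ± 3.81, the cysteine protease CTSB at 329 ± 29.8, the palmitoyl-protein thioesterase PPT1 at 204 ± 9.76 and the membrane glycoprotein LAMP1 at 185 ± 25.8. PPT1 and LAMP1 were closer to each other than the spread of LAMP1, while CD63, PSAP and CTSB were separated from their neighbours by more than their SDs. Among the lowest were TFEB at 0.779 ± 0.325, HEXA at 4.61 ± 0.447, the initiating kinase ULK1 at 4.67 ± 0.820 and CTSS at 5.22 ± 1.27.

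**Figure D1:**
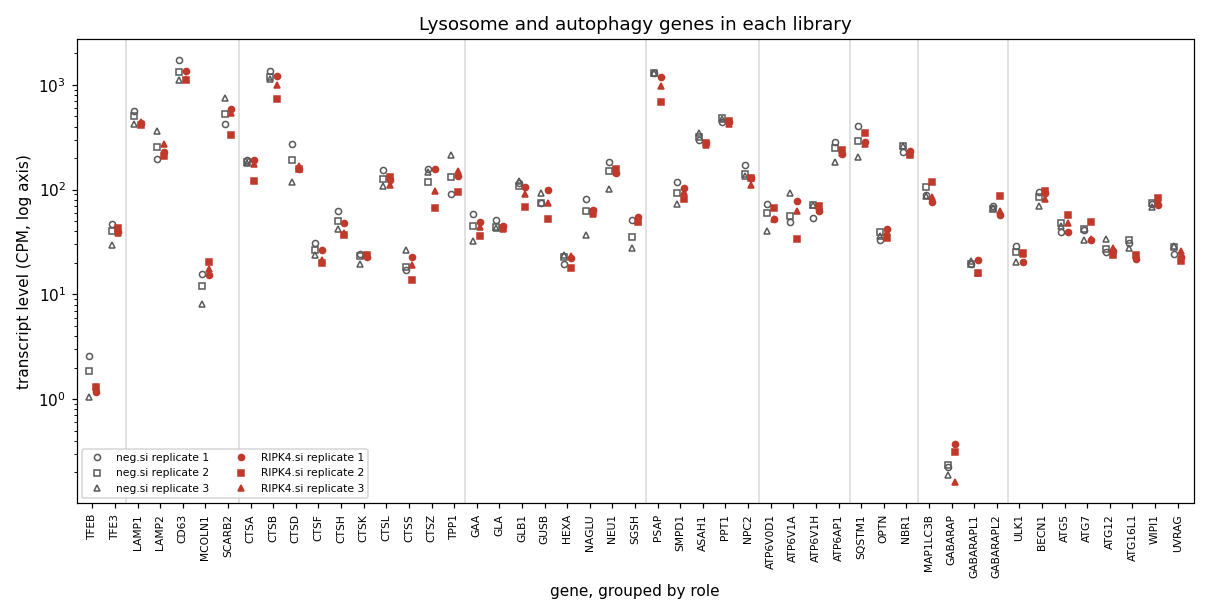
Transcript level in CPM (log axis) of the 49 lysosome and autophagy genes, grouped by role from the MiT/TFE factors on the left to autophagosome formation on the right, with 1 point per library, open grey for neg.si and filled red for RIPK4.si. Most genes show red and grey points in the same range, CD63, PSAP and CTSB are the highest, and GABARAP lies under 1 CPM.

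GABARAP, a small protein of the ATG8 family that is attached to the autophagosome membrane, was the lowest. Its counts were 7, 7 and 6 in the neg.si libraries and 11, 9 and 5 in the RIPK4.si libraries, and it was the single member that did not pass edgeR's filter on low counts. In GENCODE release 44, 68.2% of the exon bases of its canonical transcript are shared with other annotated genes. The authors counted read pairs with HTSeq without regard to strand, and whether shared bases lowered the count of GABARAP was not tested. The same share was 62.1% for CTSD and 55.7% for SQSTM1, and it was at most 37.7% for the other members, so the levels of these 3 genes are less certain than those of the rest.

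The comparison of RIPK4.si with neg.si asks which of these transcripts moved when RIPK4 was lowered. None of the 48 tested genes had an adjusted p-value under 0.05 with edgeR, where 0.767% of all genes tested did (0.393% lower and 0.374% higher in RIPK4.si), and DESeq2 called 0 of the same 48, beside 2.91% of all genes with an adjusted p-value in it. The smallest adjusted p-value among them was 0.339. At an unadjusted p-value under 0.05 there were 2 genes, ATG16L1 and MCOLN1, or 4.17%, beside 10.8% of all genes tested (6% lower and 4.85% higher). Log2 fold changes ran from -0.52 for TFEB to 0.57 for MCOLN1, with a median of -0.10 for the members and -0.02 for all genes tested, and 46 of the 48 lay within 0.5 of zero. The estimate was below zero for 35 of the 48 (72.9%), beside 53.4% of all genes tested, and for 27 (56.2%, beside 50.2%) without neg.si replicate 1. With any other library left out it was below zero for 30 to 33 (62.5% to 68.75%, beside 50.3% to 53.1%). For 25 of the 48, all with a log2 fold change within 0.27 of zero, the sign changed in at least 1 fit with a library left out. For 45 of the 48, ASAH1, NBR1 and ATG16L1 being the exceptions, leaving out some 1 library moved the log2 fold change by over 1.5 times, so single estimates below carry that limit. For 45 of the 48, the 95% interval of the log2 fold change, each taken for its gene alone, lay inside a 2-fold change in either direction, and the exceptions were TFEB, MCOLN1 and CTSZ. Bulk RNA cannot tell fewer cells expressing a gene from less RNA per cell.

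**Figure D2:**
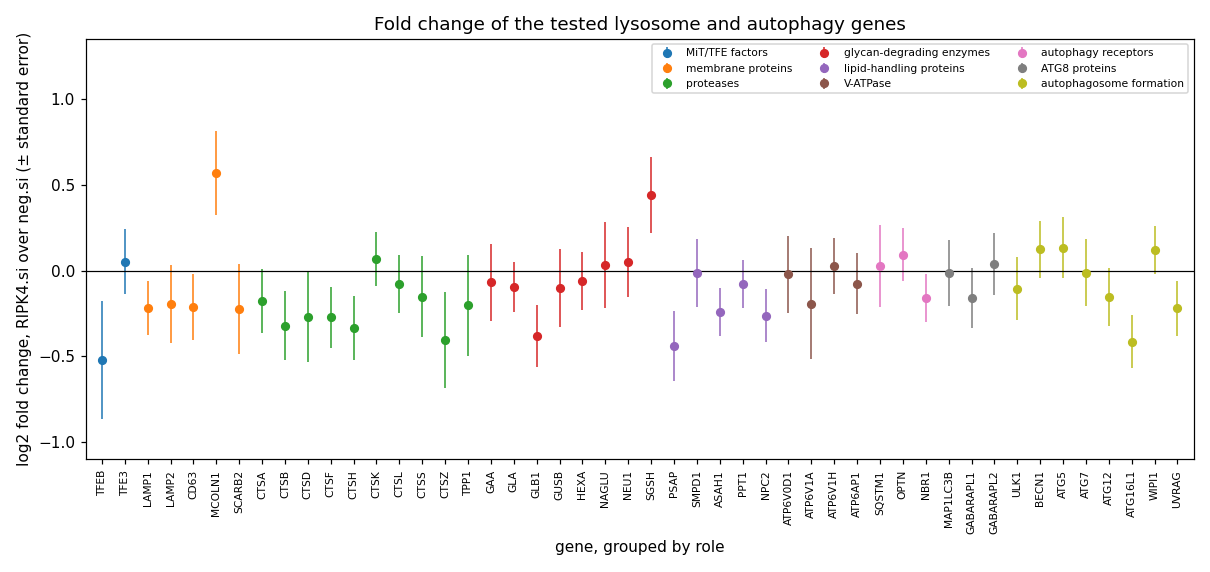
Log2 fold change of RIPK4.si over neg.si for the 48 tested genes, with points at the edgeR estimate, bars of ± 1 standard error and colours for the role of the gene. The estimates lie between -0.52 and 0.57, none was called, and MCOLN1 and SGSH are the highest.

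Libraries of the groups did not overlap in 5 of the 48 members (10.4%), beside 17.6% of all genes tested, and in all 5 the RIPK4.si libraries were the lower ones (9.4% of all genes tested had that direction and 8.23% the other). The 5 genes were PSAP, ASAH1, NPC2, GLB1 and ATG16L1, and 3 of them, PSAP, ASAH1 and NPC2, are among the 5 members that handle lipids. In 16 members the RIPK4.si values all lay inside the range of the neg.si values (33.3%, beside 26.8% of all genes tested).

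Among the transcription factors, TFEB was at 2.55, 1.86 and 1.04 CPM in the neg.si libraries and at 1.16, 1.32 and 1.32 CPM in the RIPK4.si libraries. The RIPK4.si values fell inside the wide range of the controls, and the log2 fold change was -0.52 (SE 0.346, adjusted p = 0.703 from edgeR). The size depended on the controls, at -0.18 (adjusted p = 0.849 from edgeR) without neg.si replicate 1 and -0.80 (adjusted p = 0.216) without neg.si replicate 3. TFE3, its more abundant relative, had 47.3, 40.6 and 29.3 CPM in neg.si and 39.6, 43.5 and 38.5 CPM in RIPK4.si. Here too the RIPK4.si libraries lay within the control range, with a log2 fold change of 0.05 (95% interval -0.38 to 0.48), which was -0.11 without neg.si replicate 3.

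The membrane proteins were represented by LAMP1, LAMP2, CD63, SCARB2 and MCOLN1. MCOLN1 encodes TRPML1, the channel that releases calcium from lysosomes, and lies on chromosome 19 from 7522624 to 7534009 on GRCh38. It had 15.6, 12 and 8.15 CPM in neg.si and 15.3, 20.4 and 17.3 CPM in RIPK4.si. The groups touched, since neg.si replicate 1 was above RIPK4.si replicate 1, and the log2 fold change was 0.57 (SE 0.244, unadjusted p = 0.0436, adjusted p = 0.435 from edgeR). With the trend of each library on GC content removed its adjusted p-value was 0.0586, the lowest that any member reached under any alternative, while without neg.si replicate 3, its lowest library, the log2 fold change was 0.36 and the unadjusted p-value 0.0942, and without neg.si replicate 1 it was 0.83 (adjusted p = 0.157 from edgeR). LAMP1, an abundant glycoprotein of the lysosomal membrane, had 566, 504 and 428 CPM in neg.si and 434, 413 and 440.4 CPM in RIPK4.si, giving a log2 fold change of -0.22 (95% interval -0.57 to 0.13) that was -0.10 without neg.si replicate 1. For CD63 the neg.si libraries had 1728, 1329 and 1123 CPM and the RIPK4.si libraries 1364, 1117 and 1128 CPM. Its difference, -0.21 on the log2 scale (95% interval -0.65 to 0.22), was smaller than the spread of the controls and was -0.01 without neg.si replicate 1. LAMP2 and SCARB2, the receptor that carries glucocerebrosidase to lysosomes, had log2 fold changes of -0.19 and -0.22 with overlapping libraries, and both estimates lay above zero, at 0.08 and 0.03, without neg.si replicate 3. The median of the 5 membrane proteins was -0.21, and 0.03 without that library.

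Of the 10 proteases, 9 had estimates below zero and edgeR called none. In the fit on all libraries none had an unadjusted p-value under 0.05, whereas CTSH did with the GC trend removed (0.0347), CTSD (0.0131) and CTSH (0.0225) did without neg.si replicate 3, CTSZ did with a replicate block, CTSH and CTSZ with both block and GC trend removal, and CTSB and CTSZ did without RIPK4.si replicate 1, none of them with an adjusted p-value under 0.05. The median log2 fold change of the 10 was -0.24, beside -0.02 over all genes tested. Without RIPK4.si replicate 2 the median was -0.13 and 7 of the 10 lay below zero, and without neg.si replicate 1 these were -0.15 and 7. RIPK4.si replicate 2 was under 70% of the mean of the other RIPK4.si libraries in 5 of the 10, beside 18.8% of all genes tested. CTSB had 1352, 1190.0 and 1139 CPM in neg.si and 1212, 734 and 1000 CPM in RIPK4.si, with RIPK4.si replicate 1 inside the control range, and its log2 fold change was -0.32 (SE 0.201, adjusted p = 0.67), or -0.14 without RIPK4.si replicate 2. CTSH, an aminopeptidase of the cathepsin family, had 63.0, 50.4 and 42.5 CPM in neg.si and 47.8, 37.1 and 38.8 CPM in RIPK4.si. Its log2 fold change was -0.33 (adjusted p = 0.608), or -0.15 without neg.si replicate 1, and the libraries overlapped. CTSZ, a carboxypeptidase, had 158, 119 and 146 CPM in neg.si and 156, 66.4 and 96.6 CPM in RIPK4.si. The spread of CTSZ within RIPK4.si exceeded the difference between the groups, with a log2 fold change of -0.41 (95% interval -1.04 to 0.22) that became -0.15 without RIPK4.si replicate 2. CTSF had 30.8, 26.5 and 24.0 CPM in neg.si and 26.4, 19.8 and 21.1 CPM in RIPK4.si, and its log2 fold change was -0.27 (adjusted p = 0.698), or -0.15 without neg.si replicate 1. The other proteases, CTSA, CTSD, CTSK, CTSL, CTSS and TPP1, the tripeptidyl peptidase lost in a childhood neuronal storage disease, had log2 fold changes from -0.27 for CTSD to 0.07 for CTSK, and their libraries overlapped. CTSD ranged from -0.53 without neg.si replicate 3 to 0.08 without neg.si replicate 1.

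The 8 enzymes that degrade glycans divided into 3 with estimates above zero and 5 below, and none was called. Without RIPK4.si replicate 2 it was 2 below zero, and without neg.si replicate 1 it was 3. In the edgeR fit on all libraries none had an unadjusted p-value under 0.05. GLB1 and SGSH did with the GC trend removed (0.041 and 0.00638), with a replicate block and with both. GLB1 also did without RIPK4.si replicate 1, and SGSH without neg.si replicate 1. None of these had an adjusted p-value under 0.05. GLB1, the beta-galactosidase whose activity is the common stain for senescent cells, had 116, 109 and 122 CPM in neg.si and 107, 67.9 and 91.2 CPM in RIPK4.si. All RIPK4.si libraries were below the controls, though replicate 1 only slightly, and the log2 fold change was -0.38 (SE 0.182, unadjusted p = 0.0636, adjusted p = 0.503 from edgeR), or -0.21 without RIPK4.si replicate 2. SGSH, a sulfatase of heparan sulfate breakdown, differed in the other direction, with 51.2, 35.3 and 27.7 CPM in neg.si and 55.0, 49.3 and 50.6 CPM in RIPK4.si. Its neg.si replicate 1 reached the RIPK4.si range, and the log2 fold change of 0.44 (adjusted p = 0.532) was 0.26 without neg.si replicate 3 and 0.73 (adjusted p = 0.12 from edgeR) without neg.si replicate 1. The other 6, GAA, GLA, GUSB, HEXA, NAGLU and NEU1, had log2 fold changes from -0.10 for GUSB to 0.05 for NEU1.

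All 5 members that handle lipids had estimates below zero (4 without neg.si replicate 1 or without RIPK4.si replicate 2), and none was called. Their median log2 fold change was -0.24, beside -0.02 over all genes tested, and leaving out neg.si replicate 1 gave -0.13 and neg.si replicate 3 gave -0.18. PSAP, on chromosome 10 from 71816298 to 71851325, had the most even controls of all members, at 1308, 1288 and 1294 CPM, a coefficient of variation of 0.808%. In the RIPK4.si libraries it had 1193, 691 and 981 CPM, all below the controls, and the spread within RIPK4.si was 26.4%. The log2 fold change was -0.44 (SE 0.204, unadjusted p = 0.0575, adjusted p = 0.486 from edgeR), and without RIPK4.si replicate 2 it was -0.25. The unadjusted p-value of PSAP was under 0.05 with DESeq2 (0.0439), without the filter on low counts and without RIPK4.si replicate 1. It was also under 0.05 with a replicate block, alone or with the GC trend removed. None of these gave an adjusted p-value under 0.05. ASAH1, the acid ceramidase, had 298, 319 and 350.0 CPM in neg.si and 276, 277 and 267 CPM in RIPK4.si, without overlap, a log2 fold change of -0.24 (95% interval -0.55 to 0.08). NPC2, which hands cholesterol to the membrane protein NPC1, had 170.0, 139.5 and 135 CPM in neg.si and 130.1, 129 and 111 CPM in RIPK4.si, giving a log2 fold change of -0.26 (adjusted p = 0.637), or -0.13 without neg.si replicate 1. PPT1 was among the steadiest members, with 440.4, 481 and 476 CPM in neg.si, 444, 455 and 424 CPM in RIPK4.si and a log2 fold change of -0.08 (95% interval -0.39 to 0.23). The acid sphingomyelinase SMPD1 had a log2 fold change of -0.02.

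Summed over the 5 lipid-handling genes, the level was 2336, 2321 and 2327 CPM in neg.si and 2148, 1634 and 1877 CPM in RIPK4.si, or 81.0% of the control mean. For the 10 proteases the sum in RIPK4.si was 82.4% of that in neg.si, with overlapping libraries, and for the 5 membrane proteins it was 86.5%. RIPK4.si replicate 2 had the lowest sum in both. RIPK4.si replicates 1, 2 and 3 had 2096, 1402 and 1806 CPM for the proteases and 2631, 2097 and 2390 CPM for the membrane proteins. The sums of the other 6 roles lay between 95.3% and 102.2%. These sums are set mostly by their most abundant genes, PSAP, CTSB and CD63.

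The V-ATPase is the proton pump, and its 4 members, ATP6V0D1 of the membrane sector, ATP6V1A and ATP6V1H of the catalytic sector and the accessory subunit ATP6AP1, had log2 fold changes between -0.19 and 0.03. ATP6V1A, which binds ATP, had 49.3, 55.9 and 93.4 CPM in neg.si and 77.4, 33.7 and 62.7 CPM in RIPK4.si, a spread within each group that exceeded the difference between them. Its estimate of -0.19 turned to 0.14 when neg.si replicate 3 was left out and to 0.09 when RIPK4.si replicate 2 was.

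Among the receptors that tether cargo to the autophagosome, NBR1 had 231, 259 and 259 CPM in neg.si and 236, 212 and 225 CPM in RIPK4.si, giving a log2 fold change of -0.16 (95% interval -0.47 to 0.16), while SQSTM1 (p62) and OPTN had log2 fold changes of 0.03 and 0.09. The ATG8 proteins, which bind those receptors, had overlapping libraries too. GABARAPL1 had 19.5, 19.3 and 20.7 CPM in neg.si and 21.4, 16.0 and 15.9 CPM in RIPK4.si, giving a log2 fold change of -0.16 (-0.31 with RIPK4.si replicate 1 left out, -0.08 with replicate 2 or 3 left out), and MAP1LC3B (LC3B) and GABARAPL2 had -0.01 and 0.04.

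Of the 8 genes for autophagosome formation, ATG16L1 was the one with an unadjusted p-value under 0.05 and the member with the smallest p-value of all. It encodes the protein that places the ATG12-ATG5 conjugate on the growing membrane, and it lies on chromosome 2 from 233210051 to 233295674. ATG16L1 had 31.1, 33.2 and 27.7 CPM in neg.si and 21.6, 23.5 and 24.0 CPM in RIPK4.si. The groups did not overlap, and the log2 fold change was -0.41 (SE 0.153, 95% interval -0.76 to -0.07, unadjusted p = 0.0233, adjusted p = 0.339 from edgeR). Leaving out any one library kept the estimate between -0.48 and -0.34, and its adjusted p-value ranged from 0.166 to 0.905 over all alternatives. Its partners ATG5 and ATG12 had log2 fold changes of 0.13 and -0.15 (0.00063 for ATG5 without RIPK4.si replicate 2, and -0.01 for ATG12 without neg.si replicate 3), and the E1-like enzyme ATG7, which activates ATG12 for the conjugate, had -0.01. The rest of this role, ULK1, BECN1, WIPI1 and UVRAG, lay between -0.22 for UVRAG and 0.12 for WIPI1 and BECN1, with none called.

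The neg.si libraries also differed from each other. CPM in neg.si replicate 1 was over 1.5 times that in replicate 3 for 13 of the 48 tested members, and the reverse held for 5, together 37.5% of the members and 44.1% of all genes tested. TFEB was 2.46 times, CTSD 2.35 times and NAGLU 2.19 times as high in replicate 1 as in replicate 3. In the opposite direction TPP1 was 2.34 times, ATP6V1A 1.89 times and LAMP2 1.87 times as high in replicate 3. Across the 48 genes the rank correlation of this ratio with the GC content of the longest transcript was 0.759, a description of genes that share the same libraries, beside 0.628 across all genes tested. Members lowest in neg.si replicate 3 numbered 28 and had a median GC content of 54.8%, whereas the 12 that were highest there had 44.1%, and whether GC content caused this was not tested. With the GC trend removed 0 of the 48 were called and 5 had an unadjusted p-value under 0.05, beside 3.27% and 15.9% of all genes, and without neg.si replicate 3 the counts were 0 and 4, beside 1.78% and 14.3%.

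**Figure D3:**
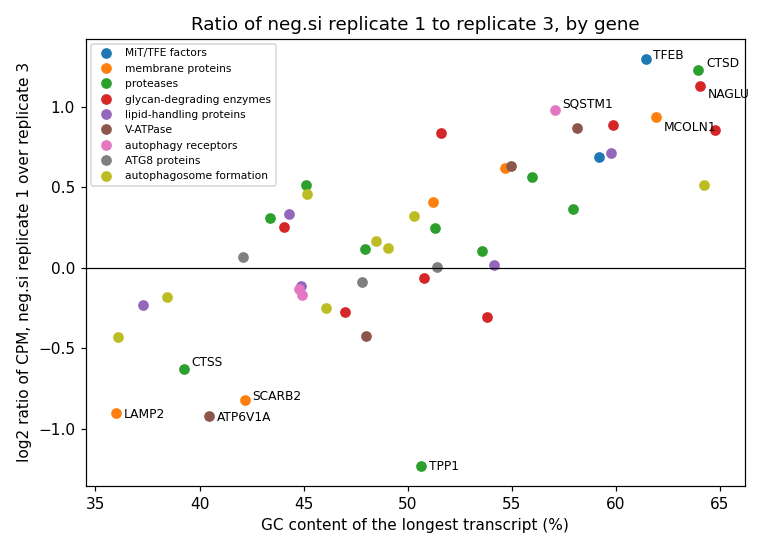
Log2 ratio of CPM in neg.si replicate 1 to that in neg.si replicate 3 against the GC content of the longest transcript, 1 point for each of the 48 tested genes, coloured by role. Genes of high GC content such as TFEB, CTSD and NAGLU were higher in replicate 1, and genes of low GC content such as LAMP2 and ATP6V1A were higher in replicate 3, with TPP1 the farthest below.

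RIPK4.si replicate 2 was the lowest of its group for 23 of the 48 members. In 10 of them, SCARB2, CTSA, CTSB, CTSS, CTSZ, TPP1, GLB1, GUSB, PSAP and ATP6V1A, it was under 70% of the mean of the other RIPK4.si libraries. This is 20.8% of the members, beside 18.8% of all genes tested, so the share was near the background. It was over 140% of that mean for MAP1LC3B, GABARAPL2 and ATG7, or 6.25%, beside 7.39% of all genes.

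A further list of 140 lysosome and autophagy genes, written from general knowledge, covers the remaining hydrolases, membrane proteins, sorting receptors, V-ATPase subunits, mTORC1 regulators at the lysosome and autophagy genes. Of these, 137 were in the table and 135 were tested. With edgeR 1 was called, or 0.741%, beside 0.767% of all genes tested, and 18 had an unadjusted p-value under 0.05 (13.3%, beside 10.8%), 10 higher and 8 lower in RIPK4.si. DESeq2 called 9 of the 134 that it gave an adjusted p-value (6.72%, beside 2.91% of all genes), 5 that rose and 4 that fell. Removal of the GC trend gave 8 (5.93%, beside 3.27%), 4 in each direction. Log2 fold changes had a median of -0.04.

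The gene called by edgeR was OSTM1, on chromosome 6 from 108041409 to 108165854, which encodes the partner subunit of the lysosomal chloride-proton exchanger CLCN7. OSTM1 had 185, 228 and 278 CPM in neg.si and 89.3, 108 and 113 CPM in RIPK4.si. The groups were far apart, with a log2 fold change of -1.16 (SE 0.186, adjusted p = 0.0344 from edgeR, 1.29e-05 from DESeq2). Without neg.si replicate 2, or without RIPK4.si replicate 1, 2 or 3, the edgeR adjusted p-value was between 0.125 and 0.237, and OSTM1 was no longer called, though its log2 fold change stayed at -1.21 to -1.05. In 3 of these 4 fits no gene of the whole table was called. CLCN7 itself, chosen here after its values were seen, had 96.9, 78.7 and 60.9 CPM in neg.si and 78.7, 90.7 and 75.3 CPM in RIPK4.si, giving a log2 fold change of 0.05.

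The next smallest p-values belonged to BNIP3, AGA, NAAA and SLC17A5, each with groups that did not overlap. BNIP3, a mitophagy receptor that hypoxia induces, had 194, 181 and 148 CPM in neg.si and 285, 383 and 298 CPM in RIPK4.si, giving a log2 fold change of 0.89 (adjusted p = 0.0651 from edgeR, 0.00145 from DESeq2). AGA, which cuts the bond between asparagine and the sugar chain of glycoproteins, had 94.2, 93.4 and 98.1 CPM in neg.si and 63.8, 61.6 and 59.6 CPM in RIPK4.si, giving a log2 fold change of -0.63 (adjusted p = 0.0788 from edgeR, 0.00854 from DESeq2). In both genes the difference between the groups was larger than the SD within either. NAAA, an acid amidase, had 5.72, 6.49 and 8.34 CPM in neg.si and 15.6, 11.4 and 13.8 CPM in RIPK4.si, giving a log2 fold change of 0.99 (adjusted p = 0.0809 from edgeR, 0.00155 from DESeq2). SLC17A5, the exporter of sialic acid from lysosomes, had 24.8, 31.2 and 32.7 CPM in neg.si and 44.4, 52.3 and 51.7 CPM in RIPK4.si, giving a log2 fold change of 0.74 (adjusted p = 0.0902 from edgeR, 0.00632 from DESeq2).

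DESeq2 also called NPC1, LAPTM5, SORT1 and ATP6V1D, which are named here after their values were seen. NPC1, the cholesterol exporter that receives its cargo from NPC2, had a log2 fold change of 0.55 (adjusted p = 0.14 from edgeR, 0.0365 from DESeq2), where NPC2 had -0.26. ATP6V1D, a stalk subunit of the V-ATPase, had 0.82 (0.141 from edgeR, 0.0237 from DESeq2). SORT1, a sorting receptor for several hydrolases and for prosaposin, had -0.67 (0.156 and 0.0293), and the lysosomal membrane protein LAPTM5 had -0.81 (0.0951 and 0.0137). With the GC trend removed, 8 of the 9 genes were called by edgeR and ATP6V1D was not, with an adjusted p-value of 0.118.

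**Figure D4:**
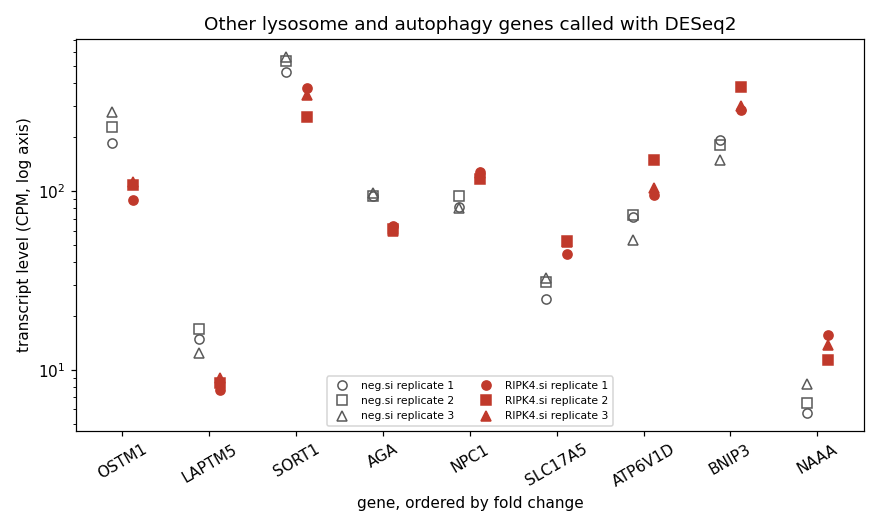
Transcript level in CPM (log axis) in each library for the 9 other lysosome and autophagy genes called with DESeq2, ordered by log2 fold change from OSTM1 on the left to NAAA on the right, open grey for neg.si and filled red for RIPK4.si. In each gene the red points lie on one side of the grey ones.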

How the data were processed

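RNA-seq was measured in 6 libraries of WM266.4 cells, 3 neg.si and 3 RIPK4.si, grouped by their titles. The authors enriched poly(A) RNA, removed adapters from paired reads (Cutadapt), mapped the rest to GRCh38.p13 (TopHat) and used HTSeq, ignoring strand, to assign pairs to genes. Whole, unnormalized counts were deposited. A second set of deposited values, a signal scaled by a DESeq2 size factor in each library, was not used. Columns of fold change, standard error and p-values of the authors' DESeq2 fit were left out.

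The main test was that of edgeR 4.0.16 under R 4.3.3 (TMM scaling, its filter on low counts, quasi-likelihood test, Benjamini-Hochberg adjustment over 16297 genes, called under 0.05). The standard error was the log2 fold change divided by the square root of F. Alternatives were DESeq2 1.42.0, other normalizations and filters, a replicate block, removal of a lowess trend on GC content (span 0.3) and each library left out. The test was checked on simulated data. Coordinates came from the table, and exon overlap, canonical lengths and GC content from GENCODE release 44, which held 24416 of the identifiers. Python 3.11.15 was used for the rest.

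Members, lists and tests were chosen with earlier results of these data known. Values per library are given for every member called, the 12 with the smallest p-values, the smallest in each role, TFEB and TFE3, the 5 with the highest level per length and RIPK4, and among the other genes for those called and the 5 with the smallest p-values. CD68, ATP6V0D2 and MAP1LC3A of the further list were not analysed here.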

Additional observations from a re-analysis of the deposited data

How the results depend on the processing

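No member was called under any of the 14 alternatives. The count of members with an unadjusted p-value under 0.05, 2 in the main analysis, was 5 with the GC trend removed, 6 with a replicate block and 7 with both, and lay between 0 and 5 with each library left out. The count of other pathway genes called, 1 in the main analysis, was 9 with DESeq2, 8 with the GC trend removed and 7 with the GC trend removed and a replicate block, and between 0 (neg.si replicate 2 or any RIPK4.si replicate left out) and 4 (neg.si replicate 3 left out). Over all genes, calls numbered 125 in the main analysis, 437 with DESeq2, 533 with the GC trend removed and 434 with the trend removed and a replicate block, and 0 to 295 with each library left out. The log2 fold change of RIPK4 stayed between -2.06 and -1.74 with each library left out. It was not called without neg.si replicate 2 (adjusted p = 0.106) or without RIPK4.si replicate 1, 2 or 3 (0.094, 0.0622 and 0.0725) in edgeR. Estimates of 25 members changed sign with a library left out. Among those whose values are given in each library, TFE3 ranged from -0.11 to 0.23, changing sign when neg.si replicate 3 was dropped, and ATP6V1A from -0.45 to 0.14, changing sign when neg.si replicate 3 (0.14) or RIPK4.si replicate 2 (0.09) was dropped. The median log2 fold change of the members lay between -0.15 and -0.09. The titles do not say whether libraries with the same number came from the same experiment. Across genes, their deviations from the group means correlated at -0.24, 0.25 and 0.35 in pairs 1, 2 and 3. Of the controls, neg.si replicates 2 and 3 correlated best with their own number, and neg.si replicate 1 with RIPK4.si replicate 2 (0.41). Whether the libraries are paired was not tested. With 3 libraries in a group, small changes could go undetected. The printed intervals are unadjusted and each for its gene alone, so they do not give the smallest change that could be called. The interval of ATG16L1, -0.76 to -0.07, left out zero, yet its adjusted p-value from edgeR was 0.339.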
